A study of Mus musculus with 14 samples.

Results

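Interferon-stimulated genes were followed in the livers of obese mice whose weight was lowered by an SGLT2 inhibitor or by eating less. The set holds 37 genes given by name, and 35 of them had a probe set annotated with that symbol alone, out of 22180 genes tested. Gbp2 had only a probe set shared with other genes and Ifi44 was not analysed here. For a gene with more than 1 probe set, the one with the highest mean over the 14 arrays was used, and among these genes this applied to Ifi35 alone. All mice were male C57Bl/6J, 6 weeks old when a 60% high-fat diet (HFD) began, and had 4 weeks of that diet before 4 weeks in 1 of 3 arms. HFD control mice stayed on the diet (4 arrays), HFD with canagliflozin mice also received the drug at 30 mg/kg (5 arrays), and HFD with caloric restriction mice had their intake cut by 15 to 30% to match the weight of the drug arm (5 arrays). No lean, chow-fed or infected group is among these arms, so every comparison is between obese mice kept on the same fat-rich diet. Values are log2 RMA values, the summary that Affymetrix software gives for the probes of a probe set, and a difference of 1 is a doubling.

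Interferons are secreted when cells sense viral or misplaced nucleic acid. Type I interferons act through the receptor chains IFNAR1 and IFNAR2 and the kinases JAK1 and TYK2 and lead to binding of STAT2 and IRF9 at the interferon-stimulated response element (ISRE) of target genes. Interferon gamma acts through IFNGR1 and IFNGR2 and the gamma-activated sequence (GAS). In liver, hepatocytes, Kupffer cells and endothelial cells all respond, and a low level of the response is present without infection. The genes of the set include the response's own transcription factors, nucleic acid sensors, enzymes that degrade RNA or block translation, and the proteins that prepare peptides for MHC class I.

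The arrays were alike in scale, with medians from 4.07 to 4.13 and correlations from 0.971 to 0.985 for any pair. Hepatocyte genes were bright, with Alb between 13.91 and 14.09 on every array. For every list of markers of other liver cells, the array means overlapped between the arms. The largest median difference was 0.19, in Kupffer cell and macrophage markers between canagliflozin and caloric restriction. The mean of 13 Kupffer cell and macrophage markers lay between 6.48 and 7.36 in controls, between 6.82 and 7.30 under canagliflozin and between 6.40 and 7.14 under caloric restriction. The mean of 11 T and NK cell markers lay between 3.79 and 4.06 and that of 7 neutrophil markers between 2.84 and 3.11 over all arrays, below the array medians. The mean of 7 markers of plasmacytoid dendritic cells, which are a main source of type I interferon, lay between 4.85 and 5.14 in controls, 4.85 and 5.03 under canagliflozin and 4.83 and 5.03 under restriction. Siglech, a defining marker among them, averaged 3.87, 3.91 and 3.88 in that order, below the array medians. The list mean is raised by Bst2, a gene of the set at 9.57 in controls, and by Tcf4 at 6.36. The rest lay between 2.48 (Klk1) and 4.98 (Ly6d) in controls. In whole liver, fewer cells of a type and less RNA per cell cannot be told apart. Whether replicates came from separate mice is not stated array by array, so p-values measure the spread between these arrays.

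The elements through which this response is switched on can be read in the promoters of the genes. RefSeq promoter windows (GRCm38.p6, 250 bases before to 50 after a gene's start) were held for 29 of the 37 genes. They were searched on both strands for an IRF core (GAAANNGAAA), for a longer ISRE that contains it (GAAANNGAAACT) and for the GAS element (TTCNNNGAA, which reads the same on both strands). The stretches below were chosen because they show each type of element in genes of different roles, all of them before the start. They are written 5′ to 3′ on the strand of the gene, and capitals mark every base that falls in a match to any of the 3 patterns or its reverse complement.
Isg15, chr4:156200859-156200918, minus strand: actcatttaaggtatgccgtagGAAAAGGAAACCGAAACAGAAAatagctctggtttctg
Ifit1, chr19:34640764-34640823, plus strand: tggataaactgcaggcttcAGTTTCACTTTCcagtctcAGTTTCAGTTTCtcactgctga
Bst2, chr8:71537563-71537622, minus strand: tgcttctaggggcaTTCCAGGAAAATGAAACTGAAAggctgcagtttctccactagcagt
Irgm1, chr11:48871421-48871480, minus strand: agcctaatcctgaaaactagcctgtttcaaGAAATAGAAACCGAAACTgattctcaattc
Igtp, chr11:58199496-58199555, plus strand: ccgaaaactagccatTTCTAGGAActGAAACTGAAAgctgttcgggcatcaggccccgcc
Oas3, chr5:120777700-120777759, minus strand: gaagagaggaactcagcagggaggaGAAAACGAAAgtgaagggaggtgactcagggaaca
Irf1, chr11:53769904-53769963, plus strand: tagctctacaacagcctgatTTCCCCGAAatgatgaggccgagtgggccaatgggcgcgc
Psmb8, chr17:34198075-34198134, plus strand: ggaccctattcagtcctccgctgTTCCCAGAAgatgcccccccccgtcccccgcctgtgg

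Isg15 held 3 overlapping IRF cores, whose first bases lie 78, 72 and 66 bases before the start. Ifit1 held 2 copies of the ISRE, at 106 and 87 bases. In Bst2 a GAS match at 136 bases overlapped an ISRE at 130 bases, and Igtp had a GAS match at 45 bases and an IRF core at 34. Irf1 and Psmb8 showed a GAS match (90 and 97 bases before the start) and no IRF core. The IRF core was present in the windows of 15 of the 29 genes and the ISRE in 8, against 3.44% and 0.271% of all 32851 windows. The GAS letters were in 8 of the 29 genes and in 8.30% of all windows, the most common of the 3 patterns over all windows. Some genes have several windows. Counted by window, the IRF core was in 42.9% of the 35 windows of the set, the ISRE in 22.9% and the GAS letters in 22.9%. A match is a description of letters in this window and not of binding, and no match says only that the letters are not there.

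**Figure D1:**
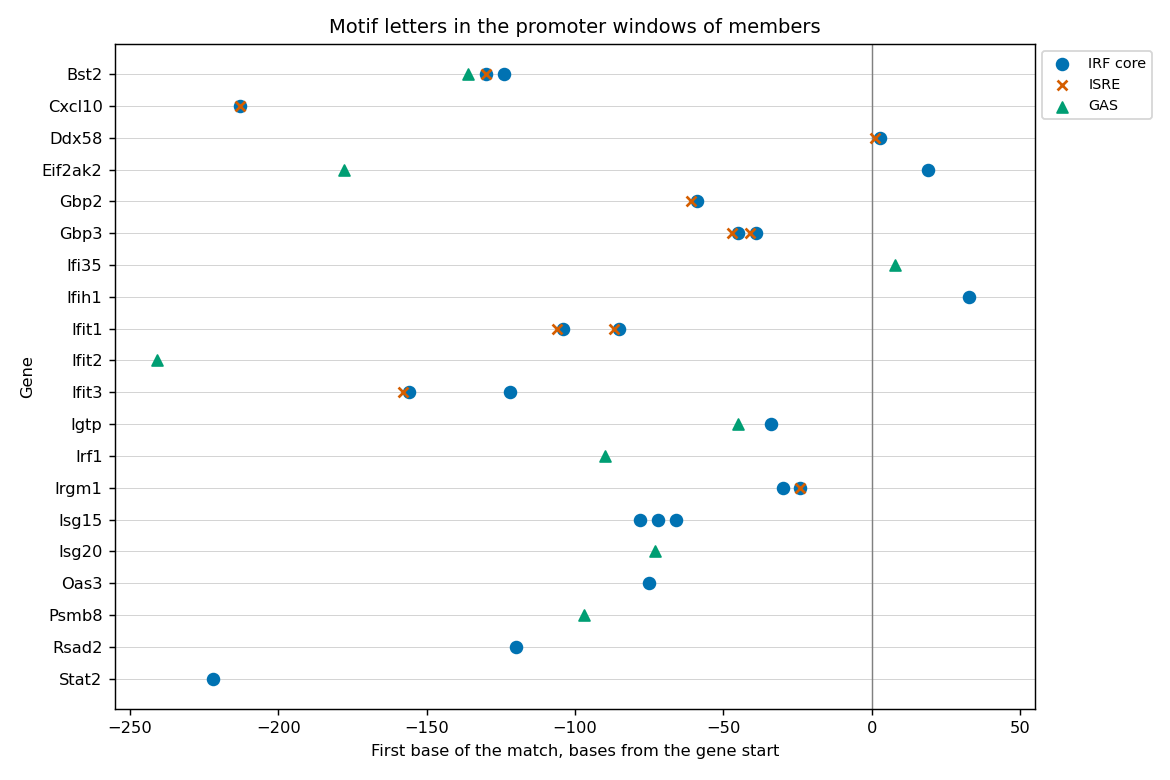
Position of each motif match in the promoter windows of the set, with the distance of its first base from the gene start on the x axis (bases) and 1 gene per line. Circles are the IRF core, crosses the ISRE and triangles the GAS element, and genes without a match are not drawn. Ifit1, Ifit3, Gbp3 and Isg15 carry several matches before the start.

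Psmb9 and Tap1, which encode an immunoproteasome subunit and a chain of the peptide transporter, start from opposite sides of the same short stretch. The 225 bases between their starts, shown because any change there concerns both genes, hold no match to the 3 patterns. They lie at chr17:34187331-34187555 and are given on the strand of Tap1.
Psmb9 and Tap1: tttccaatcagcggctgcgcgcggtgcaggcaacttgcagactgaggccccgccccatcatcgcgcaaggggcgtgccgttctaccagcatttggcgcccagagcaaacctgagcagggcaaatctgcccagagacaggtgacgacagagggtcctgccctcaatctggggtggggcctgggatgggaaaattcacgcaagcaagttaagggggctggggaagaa

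Under caloric restriction most of the set had slightly lower values than in HFD controls, in nearly every role. Of 35 genes 31 had a lower mean, against 49.5% of all genes tested, and the median log2 difference was -0.20 against 0.002 over all genes. The genes were chosen with earlier results of these data known, so this share and median are descriptions and were not tested. No gene of the set was called (limma, Benjamini-Hochberg adjusted p under 0.05), and 0% of all genes were. The lowest adjusted p in the set was 0.999. At an unadjusted p under 0.05, 4 genes of the set were lower and 0 higher, against 1.87% and 2.06% of all genes. These were Trim25, Rtp4, Irf9 and Psmb9. The count of 4 was 10 without restriction replicate 2, 7 without restriction replicate 3, and 2 without HFD control replicate 2 or 4 or restriction replicate 4 or 5. The share over all genes was not computed for the fits that left out an array, so their counts are descriptions only. The median half-width of a 95% confidence interval in the set was 0.27, and the largest difference was 0.28 in size.

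The mean over the 35 genes was 6.17, 6.25, 6.14 and 6.22 in HFD control replicates 1 to 4. It was 5.94, 6.16, 6.13, 6.01 and 6.01 in caloric restriction replicates 1 to 5. Replicates 1, 4 and 5 of the restricted arm lay below all controls, replicate 3 just below the lowest control and replicate 2 within their range. In replicate 1, 31 of 35 genes were below the control mean of that gene, and in replicate 2, 18 were. Replicates 1, 4 and 5 had 18, 17 and 19 genes below the lowest control array, and replicates 2 and 3 had 8 and 10. The share over all genes was not computed for these counts on single arrays, so they are descriptions only. Kupffer cell and macrophage markers had lower means in 10 of 13 genes under restriction (median -0.055), and so had 5 of 7 markers of plasmacytoid dendritic cells (median -0.09), 1 of which is Bst2 of the set. Their part in the result was not tested.

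**Figure D2:**
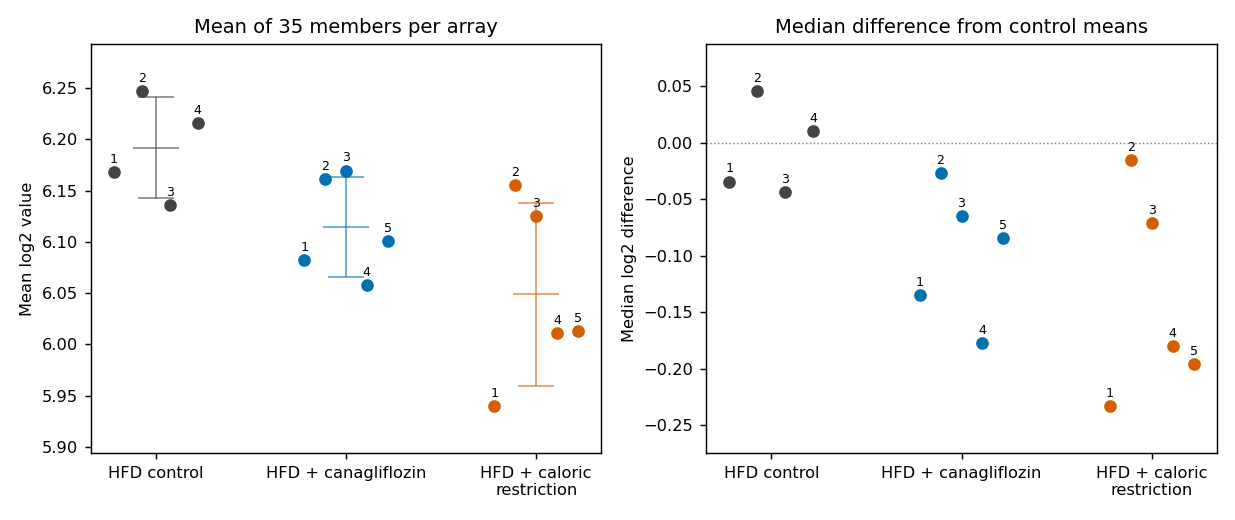
Left, the mean log2 value of the 35 genes on each array, by arm (points, with the replicate number above, and the arm mean ± SD as bars). Right, the median over the genes of the log2 difference between each array and the control mean of the gene, where restricted replicates 1, 4 and 5 lie between -0.18 and -0.23 and restricted replicate 2 lies near 0.

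All 4 transcription factors of the response had lower means under restriction, with a median difference of -0.22. Irf9, the DNA-binding partner of STAT2, measured 7.09, 7.26, 7.03 and 7.12 in controls. It measured 6.68, 7.14, 6.89, 6.83 and 6.98 under restriction, so that 4 of 5 restricted arrays lay below all controls and replicate 2 lay among them. The difference was -0.22 ± 0.10 (SE, limma adjusted p = 0.999). Irf7, which amplifies type I interferon production, averaged 7.27 ± 0.23 (SD, n = 5) against 7.49 ± 0.13 (n = 4). Stat2 averaged 7.44 ± 0.33 against 7.67 ± 0.19, and Irf1, a factor induced mainly by interferon gamma, 5.95 ± 0.16 against 6.09 ± 0.12.

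Of the ISG15 and ubiquitin system and other regulators, 7 of 7 measured genes had lower means (median -0.24). Trim25, a ubiquitin ligase that activates the RNA sensor RIG-I, measured 8.38, 8.20, 8.37 and 8.20 in controls. It measured 7.97, 8.06, 8.20, 7.79 and 8.09 under restriction. All 5 restricted arrays lay below all 4 controls, though replicate 3 only just, and Trim25 was the 1 gene of the set whose arms did not overlap, against 0.694% of all genes in that direction. None of the set lay above all controls, against 0.703% of all genes. Its difference was -0.27 ± 0.10 (SE, limma adjusted p = 0.999), or 1.20-fold, with a 95% interval from -0.48 to -0.06. Rtp4, a transmembrane protein that limits viral replication, measured 7.49, 7.49, 7.29 and 7.69 in controls and 7.31, 7.41, 7.28, 7.13 and 7.12 under restriction. Of the restricted arrays, 3 lay below all controls, and the difference was -0.24 ± 0.10 (SE). Isg15, the ubiquitin-like modifier, averaged 4.14 ± 0.15 against 4.41 ± 0.27, close to the array medians and thus dim. Parp14, an ADP-ribosyltransferase, averaged 6.86 ± 0.25 against 7.07 ± 0.24. Ifi35 was level at 7.35 ± 0.16 against 7.37 ± 0.08, and its other probe set averaged 4.57 against 4.65.

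Usp18, the protease that removes ISG15 and restrains receptor signalling, had a wide spread in the restricted arm. Controls measured 6.32, 6.37, 6.40 and 6.49. Restricted arrays measured 5.53, 6.59, 6.59, 5.75 and 6.12, so that replicates 1, 4 and 5 lay below every control and replicates 2 and 3 above. The SD was 0.48 in the restricted arm and 0.07 in controls, and the difference between the arm means was -0.28 with an interval from -0.66 to 0.10.

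Sensors, the 2-5A synthetase family and genes that block translation followed the same direction with a few exceptions. Ifih1 and Ddx58, which encode the RNA sensors MDA5 and RIG-I, averaged 7.69 ± 0.17 and 6.51 ± 0.23 under restriction against 7.89 ± 0.14 and 6.72 ± 0.12 in controls. Zbp1, a sensor of Z-form nucleic acid, averaged 5.90 ± 0.20 against 6.09 ± 0.20. Dhx58, which encodes the related helicase LGP2, was 5.13 ± 0.04 against 5.09 ± 0.03. Among genes of the 2-5A synthetase family and the RNase Isg20, 5 of 5 means were lower (median -0.14). Oasl1 averaged 5.79 ± 0.18 against 6.01 ± 0.12 and Oas3 4.73 ± 0.22 against 4.95 ± 0.17, while Oasl2 differed by less than 0.01, at 5.03 in both arms. Eif2ak2, the kinase PKR that halts translation, averaged 5.64 ± 0.24 against 5.85 ± 0.18. Ifit1, which binds RNA lacking the methylation of host caps, averaged 5.90 ± 0.17 against 6.11 ± 0.28, whereas Ifit2 was 4.13 ± 0.15 against 4.05 ± 0.20. Ifit3 differed by -0.06, and because a near-identical copy (Ifit3b) exists, its value is uncertain.

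Of genes that act on virus entry, assembly and release, 3 of 4 had lower means (median -0.07). Bst2, a tether of budding virions and also a marker of plasmacytoid dendritic cells, averaged 9.43 ± 0.24 against 9.57 ± 0.17, and Mx2 4.44 ± 0.26 against 4.67 ± 0.23. Rsad2, which encodes viperin, was 5.96 ± 0.10 against 5.97 ± 0.21. Mx1, which is defective in C57BL/6 and most other inbred strains, was dim at 2.99 ± 0.17 against 2.84 ± 0.19.

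All 3 genes of antigen processing had lower means (median -0.18). Psmb9 measured 6.47, 6.82, 6.43 and 6.70 in controls and 6.54, 6.29, 6.43, 6.29 and 6.31 under restriction. Replicates 2, 4 and 5 lay below all controls and replicates 1 and 3 in their range, for a difference of -0.24 ± 0.11 (SE). Tap1, on the other side of the shared stretch printed above, averaged 7.22 ± 0.11 against 7.40 ± 0.16, and Psmb8, which encodes another immunoproteasome subunit, 7.54 ± 0.05 against 7.62 ± 0.23. The immunity-related GTPases Igtp and Irgm1 averaged 6.48 ± 0.32 and 5.60 ± 0.17 against 6.73 ± 0.16 and 5.83 ± 0.21, and the guanylate-binding protein gene Gbp3 5.02 ± 0.25 against 4.95 ± 0.27. Cxcl10, a chemokine that draws T cells, was 4.57 ± 0.21 against 4.62 ± 0.11.

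**Figure D3:**
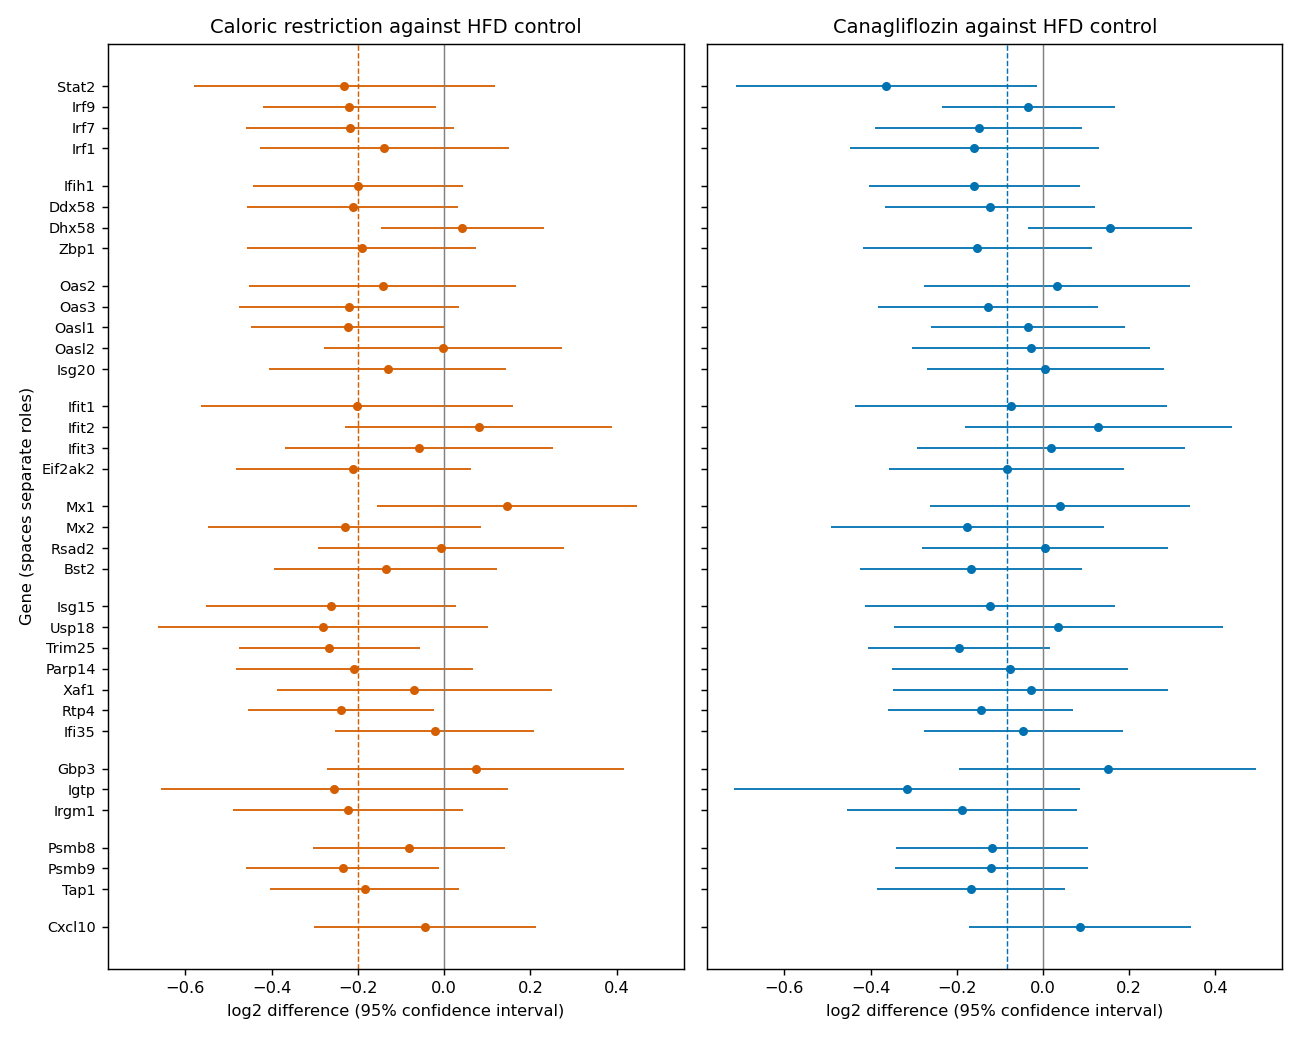
Log2 difference of each of the 35 genes from HFD controls under caloric restriction (left) and canagliflozin (right), with 95% confidence intervals from limma, grouped by role. Both panels use the same 4 controls, and dashed lines mark the medians of -0.20 and -0.08.

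Under canagliflozin, 25 of 35 genes had a lower mean, against 50.3% of all genes, with a median of -0.08 against -0.001 over all genes. The largest difference, 0.36 in size, was that of Stat2. Markers of plasmacytoid dendritic cells had lower means in 5 of 7 genes (median -0.10), 1 of which is Bst2 of the set. Kupffer cell and macrophage markers had higher means in 11 of 13 (median 0.10). The part of these markers in the result was not tested. No gene of the set was called (limma, lowest adjusted p = 0.758), as was 0% of all genes. At an unadjusted p under 0.05, 1 gene was lower and 0 higher, against 3.3% and 3.21% of all genes, a share near the background. The mean over the set was 6.08, 6.16, 6.17, 6.06 and 6.10 in replicates 1 to 5. Replicates 1, 4 and 5 lay below all controls and replicates 2 and 3 within their range. This comparison and the one above use the same control arrays, so their values are not independent of each other. The median was -0.14 without HFD control replicate 3.

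Stat2, the STAT specific to type I and III interferon, had the smallest p. It measured 7.50, 7.52, 7.84 and 7.82 in controls and 7.32, 7.23, 7.74, 6.95 and 7.30 under the drug. Replicate 3 lay among the controls and the other 4 below them, and the difference was -0.36 ± 0.17 (SE, limma adjusted p = 0.758), or 1.29-fold. Trim25 measured 8.18, 8.18, 7.89, 8.19 and 8.04 under the drug. All 5 drug arrays lay below the controls, whose lowest value was 8.20, by margins that were narrow in 3 of them. The difference was -0.20 ± 0.10 (SE, limma adjusted p = 0.789). It was again the 1 gene of the set with separate arms, against 0.965% of all genes lower and 0.987% higher, of which the set had 0.

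The GTPase gene Igtp was uneven over the drug arm, at 6.60, 6.03, 6.90, 5.90 and 6.64 against 6.52, 6.92, 6.76 and 6.72 in controls. Replicates 2 and 4 lay far below the controls and replicates 1, 3 and 5 in their range, and the difference was -0.32 ± 0.19 (SE). Dhx58 went the other way, at 5.34, 5.12, 5.47, 5.25 and 5.06 under the drug against 5.13, 5.09, 5.08 and 5.06. Replicates 1, 3 and 4 exceeded all controls and replicates 2 and 5 did not, and the difference was 0.16 ± 0.09 (SE). Of the other genes of smallest p, Tap1 differed by -0.17 ± 0.10, Irgm1 by -0.19 ± 0.13, Rtp4 by -0.14 ± 0.10 and Ifih1 by -0.16 ± 0.12 (SE). With 1 array left out these ranged from -0.24 to -0.11 for Tap1, -0.24 to -0.09 for Irgm1, -0.21 to -0.08 for Rtp4 and -0.22 to -0.10 for Ifih1.

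Ifit1 was among the 3 genes with the widest spread within arms, with Igtp and Usp18. It measured 5.68, 6.24, 6.27 and 6.23 in controls, 5.61, 6.66, 6.04, 5.90 and 5.95 under canagliflozin and 5.85, 6.20, 5.84, 5.81 and 5.82 under restriction. A single array stood away from its arm in controls (replicate 1, low) and in the restricted arm (replicate 2, high). The drug arm spanned the widest range, and the 3 arms overlapped.

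**Figure D4:**
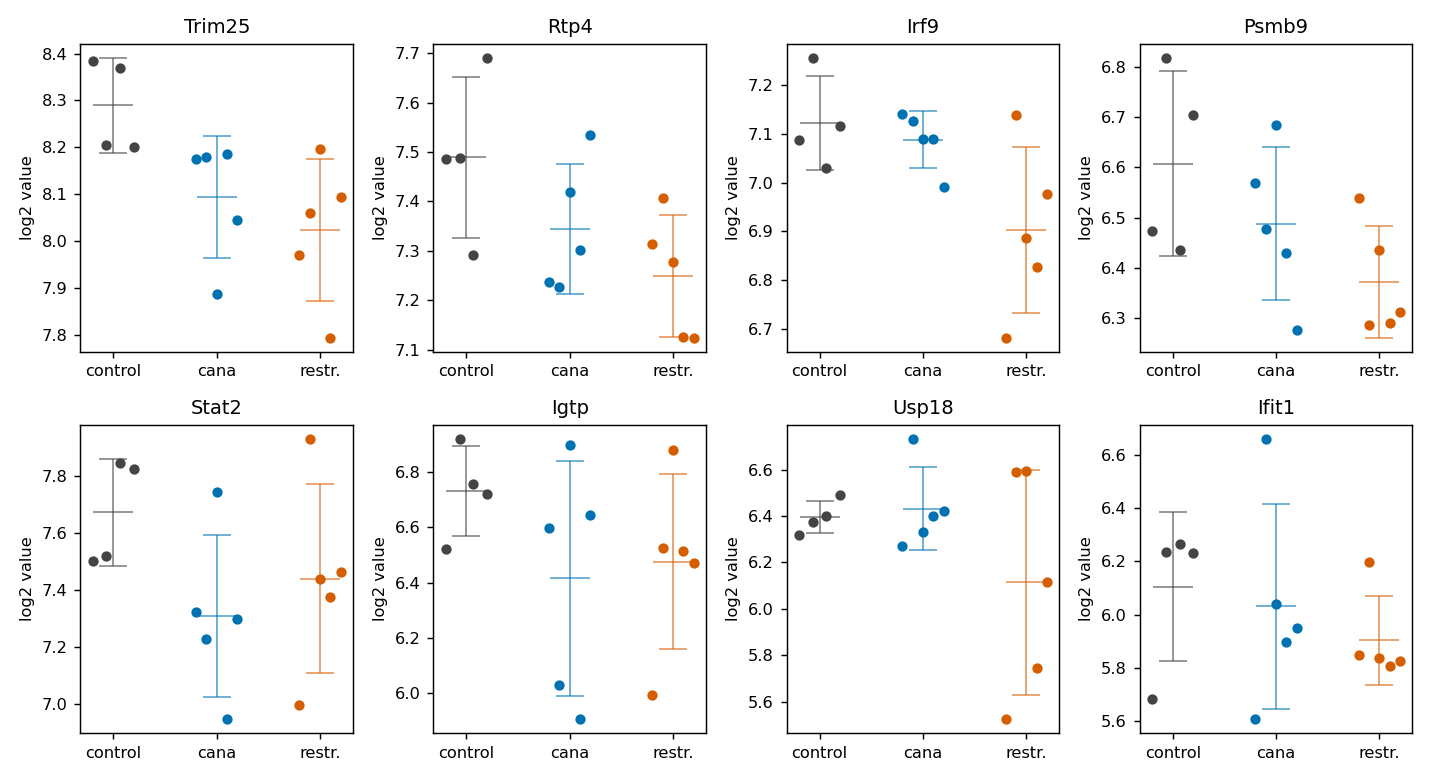
Log2 value of 8 genes on every array by arm (points), with the arm mean ± SD as bars. The axes do not start at 0. Trim25 lies lower in both treated arms than in all controls, Usp18 is wide in the restricted arm, and Ifit1 has 1 array apart in the control and restricted arms.

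Set directly against caloric restriction, canagliflozin gave higher means in 27 of 35 genes, with a median of 0.07. Kupffer cell and macrophage markers were higher in 11 of 13 genes, with a median of 0.19, and their part in the result was not tested. The other 8 genes of the set had lower means, against 51.0% of all genes. No gene of the set was called (limma, lowest adjusted p = 0.828), and 0.00451% of all genes were. At an unadjusted p under 0.05 the set had 0 genes in either direction, against 2.98% of all genes lower and 3.07% higher, and 0 genes with separate arms, against 0.491% and 0.437%. The median over all genes was -0.003.

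Irf9 had the smallest p of this comparison, at 7.14, 7.13, 7.09, 7.09 and 6.99 under the drug, a narrow range whose lowest value lay above 4 of the 5 restricted arrays. The difference was 0.19 ± 0.09 (SE, limma adjusted p = 0.828). Oasl1 measured 5.90, 6.01, 5.96 and 6.18 in controls, 5.87, 5.93, 6.23, 5.94 and 5.93 under the drug, and 5.83, 5.81, 5.99, 5.81 and 5.51 under restriction. Its difference between the treated arms was 0.19 ± 0.10 (SE), with drug replicate 3 above all other arrays. Usp18 measured 6.27, 6.73, 6.33, 6.40 and 6.42 under the drug and differed from restriction by 0.32 ± 0.17 (SE), with the 2 high restricted arrays inside the range of the drug arm. Dhx58, at 5.08, 5.12, 5.19, 5.13 and 5.15 under restriction, differed by 0.11 ± 0.08 (SE). Oas2, Psmb9, Cxcl10 and Isg20 differed by 0.17, 0.12, 0.13 and 0.14. With 1 array left out these ranged from 0.09 to 0.30, 0.07 to 0.17, 0.04 to 0.20 and 0.08 to 0.25.

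After the arm mean was subtracted from each gene, the median Pearson r over the 595 pairs of genes was 0.08 across 14 arrays, against 0.0004 over all pairs of genes tested. Of these pairs 9.41% had r above 0.5, against 5.29% of all pairs. These values are descriptions, since all genes share the same 14 arrays. A group of 9 genes each had r above 0.5 with the mean of the other members: Eif2ak2, Ddx58, Usp18, Irf9, Parp14, Ifih1, Isg15, Stat2 and Ifi35. They span sensors, the kinase PKR, the ISG15 system and subunits of the STAT2 and IRF9 complex. The highest r of a pair was 0.82, between Stat2 and Eif2ak2, followed by 0.80 between Ifih1 and Ddx58 and 0.80 between Ifih1 and Eif2ak2. By contrast, 8 genes had an r below 0 with the mean of the others, among them Ifit2 (-0.32), Ifit3 (-0.38), Isg20 (-0.20) and Rsad2 (-0.15). Trim25, with the smallest p under restriction, had an r of -0.05 and Irf7 of 0.08.

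The mean of those 9 genes was 6.64, 6.81, 6.67 and 6.76 in controls. It was 6.25, 6.83, 6.62, 6.39 and 6.50 under restriction and 6.56, 6.73, 6.72, 6.45 and 6.61 under canagliflozin. Restricted replicate 2 was the highest of all 14 arrays and restricted replicate 1 the lowest. The genes were grouped on these same values, so their likeness is not tested.

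**Figure D5:**
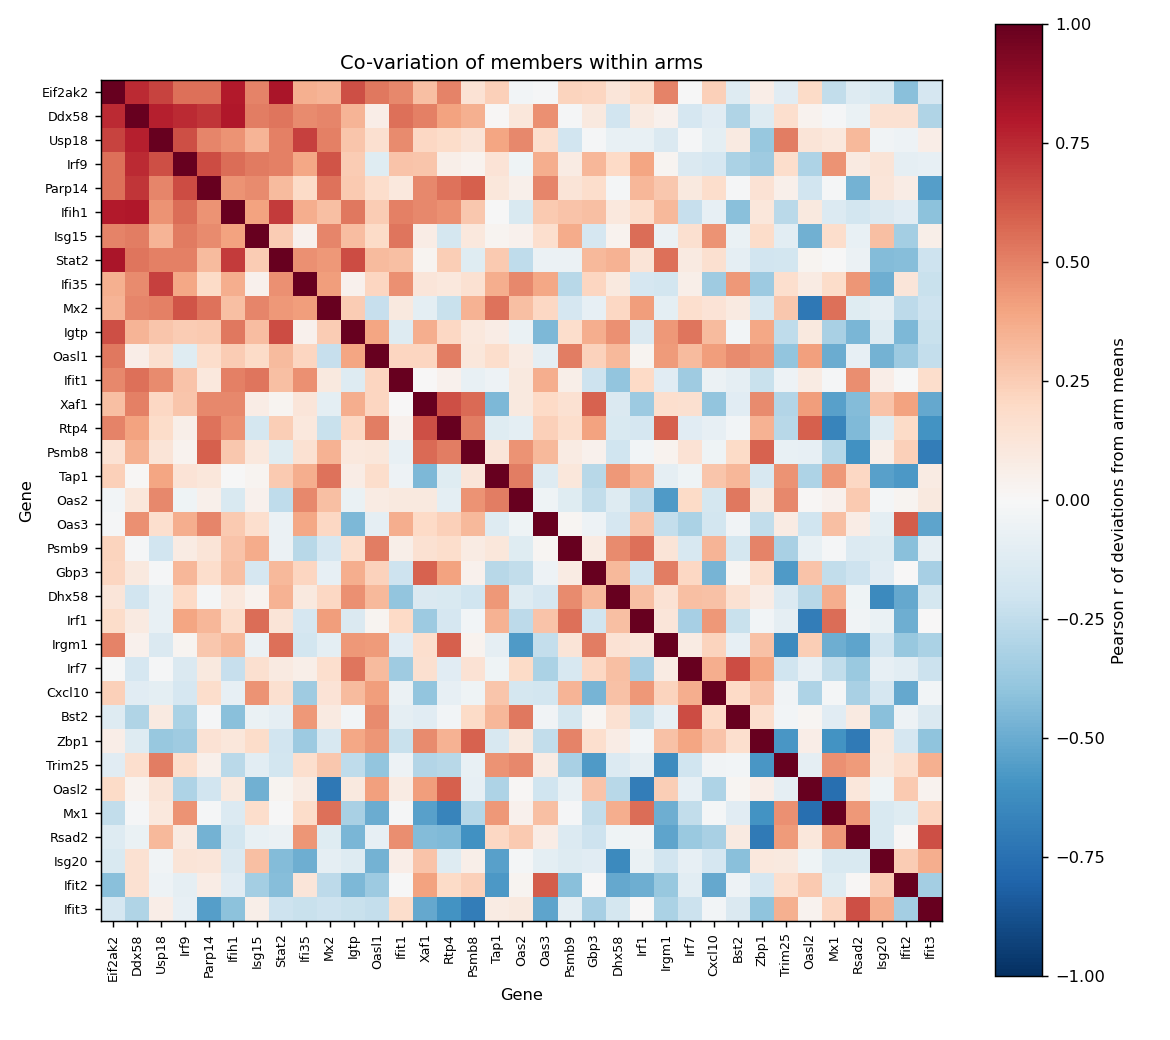
Pearson r between the deviations of each pair of genes from their arm means over 14 arrays, on a scale from -1 (blue) to 1 (red). Genes are ordered by r with the mean of the other members, and a red block of 9 genes from Eif2ak2 to Ifi35 stands at the upper left.

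Upstream of these genes, none of the 9 receptor and kinase genes had an unadjusted p under 0.05 in any comparison. Over all genes that share was 1.87% to 3.3% in each direction, so 0 of 9 is near the background. Under restriction 8 of the 9 genes had slightly lower means (median -0.07), against 49.5% of all genes. Ifnar1 averaged 8.03 ± 0.06 (SD, n = 4) in controls, 8.03 ± 0.10 (n = 5) under the drug and 7.95 ± 0.07 (n = 5) under restriction. Ifnar2 averaged 9.35 ± 0.10, 9.38 ± 0.22 and 9.28 ± 0.14 in the same order. Ifngr1 averaged 7.21 ± 0.10, 7.06 ± 0.16 and 7.18 ± 0.15 and Ifngr2 7.18 ± 0.07, 7.08 ± 0.11 and 7.09 ± 0.07.

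Most of the 19 interferon genes measured were dim, with a mean over the list between 3.68 and 3.89 on every array, and their median differences were within 0.03 of 0. At an unadjusted p under 0.05, 2 of them were lower under canagliflozin (all genes 3.3%) and 2 higher under restriction (all genes 2.06%). Ifna1 measured 6.11, 6.56, 6.13 and 6.33 in controls and 5.65, 5.99, 5.74, 6.01 and 5.59 under canagliflozin. The drug arrays all lay below the controls, and the difference was -0.49 ± 0.13 (SE, limma adjusted p = 0.559). Interferon alpha genes are near-identical copies, so which of them this probe set measures is uncertain. Ifnb1, which encodes interferon beta, averaged 3.05 ± 0.26 under restriction and 2.70 ± 0.09 in controls, both well below the array medians. Of 16 sensors and adaptors, 0 were lower and 1 higher at an unadjusted p under 0.05 under restriction (all genes 1.87% and 2.06%). This was Tlr8 at 3.91 ± 0.35 against 3.56 ± 0.16, and Ticam1, an adaptor of TLR3, averaged 5.79 ± 0.10 against 5.97 ± 0.11. Of 15 other IRF, STAT and regulator genes, 0 had an unadjusted p under 0.05 under restriction (all genes 1.87% lower and 2.06% higher). Under canagliflozin 1 was lower at that p (all genes 3.3%). This was Irf2, a relative of Irf1 that can oppose it, at 8.63 ± 0.13 against 8.86 ± 0.12, and Irf4, a factor of lymphocytes and macrophages, was dim at 3.16 ± 0.11 in controls, 3.08 ± 0.13 under the drug and 3.26 ± 0.15 under restriction.

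A wider list held 76 other interferon-stimulated genes. Under restriction 50 of them had lower means and 26 higher (median -0.08), against 49.5% lower over all genes. At an unadjusted p under 0.05, 5 were lower and 0 higher, against 1.87% and 2.06% of all genes, and limma called none. Under canagliflozin 45 were lower (median -0.04), with 3 lower and 0 higher at that p, a share near the 3.3% of all genes. Gbp11, a guanylate-binding protein gene of a family with close copies, measured 6.42, 7.10, 5.92 and 6.68 in controls and 5.33, 5.95, 5.47, 5.53 and 5.12 under the drug. Only drug replicate 2 reached the range of the controls, and the difference was -1.05 ± 0.35 (SE, limma adjusted p = 0.607). Under restriction it ranged from 5.26 to 7.52 and overlapped both. Trim30d, which also has close copies, averaged 4.02 ± 0.60 under restriction against 4.79 ± 0.30 in controls (limma adjusted p = 0.999). In 19 other genes of antigen presentation the median was -0.002 under restriction and -0.09 under canagliflozin. Set directly against restriction, canagliflozin gave lower means in 16 of them and higher means in 3 (median -0.05), against 51.0% lower over all genes. At an unadjusted p under 0.05, 1 of these genes was lower under restriction (all genes 1.87%) and 3 under canagliflozin (all genes 3.3%), and 0 were higher. Pdia3, which encodes a disulfide isomerase of the peptide-loading complex, averaged 9.95 ± 0.22 under restriction and 9.90 ± 0.28 under canagliflozin against 10.30 ± 0.09 in controls. Tapbpl, which encodes a peptide editor related to tapasin, averaged 6.78 ± 0.11 and 6.65 ± 0.11 in the same order against 6.88 ± 0.17.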

How the data were processed

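Liver RNA (250 ng) was hybridised to 1 array per sample, per the labels. The log2 values that the authors deposited come from RMA, run in Expression Console according to the submitters' processing notes, with version and build not given in the sources used. RMA equalises the arrays, so a global change in RNA would not be seen. Of 41345 probe sets, 23521 carried 1 gene symbol, 1814 several and 16010 none. The protocol gives a dose of 25 to 30 mg/kg.

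Means of 3 arms were fitted to all 22180 genes with limma 3.58.1 in R 4.3.3 (lmFit, eBayes) and p-values adjusted by Benjamini-Hochberg per comparison. The fit was checked on simulated data whose planted differences were larger than any in the set. That check does not bear on differences of the size seen in the set. Differences were named for the 8 genes of smallest p per comparison, and every array was given for the first 4 and for the 3 widest genes. From each other list up to 2 genes of smallest p were named. Promoter stretches were picked after their matches were seen. The genes and lists were chosen with earlier results of these data known. Tmem173 and Mb21d1 were matched as Sting1 and Cgas. Beside the Kupffer cell and plasmacytoid dendritic cell markers, whose medians stand in the results, lists of T and NK cell, B cell, neutrophil, endothelial, stellate cell and cholangiocyte markers had median differences between -0.08 and 0.09 in the 3 comparisons. Alternatives were other fits, scalings, filters and leaving out arrays. Arrays limit the precision by their number.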

Additional observations from a re-analysis of the deposited data

Results flagged for a closer look

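In 105 groups of arrays (35 genes in 3 arms), 5 values lay farther from the rest of their arm than Dixon's 95% limit. Chance gives about 1 in 20 groups, so the count of 5 is near what chance gives. Ifit1 had 2 of these values, the low HFD control replicate 1 at 5.685 (others from 6.23 to 6.27) and the high caloric restriction replicate 2 at 6.199 (others from 5.81 to 5.85). Irgm1 was high in HFD control replicate 4 at 6.135, where the others lay between 5.72 and 5.73. Oasl1 was high in canagliflozin replicate 3 at 6.226 (others from 5.87 to 5.94), and Cxcl10 was low in caloric restriction replicate 5 at 4.218 (others from 4.59 to 4.73).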

How the results depend on the processing

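No gene of the set was called by limma under any alternative that was run. Counting an unadjusted p under 0.05 instead, 1 gene passed for canagliflozin against control, 4 for restriction against control and 0 between the treated arms. The count of 4 became 10 without restriction replicate 2, 7 without restriction replicate 3 and 2 without HFD control replicate 2 or 4 or restriction replicate 4 or 5. For canagliflozin it ranged from 0 to 2 and between the treated arms from 0 to 3. No share over all genes at this p was computed for the alternatives, so their counts are descriptions only. Without canagliflozin replicate 3, limma called 12 of all genes for canagliflozin against control, in place of 0, and 16 between the treated arms, in place of 1. The median difference under restriction was -0.18 with the replicate number as a block, -0.19 with arrays centred on their medians and from -0.13 to -0.20 when 1 array was left out. The medians for canagliflozin against control (-0.14 to -0.06) and against restriction (0.05 to 0.09) kept their sign too. The block assumes pairing that the labels do not state: 3 of 13 same-number pairs had r above 0.1, and 5 of 14 arrays correlated best with their own number. All 24 named differences kept their direction in 550 recomputations. They had been picked for their small p in these same values, so a kept direction is only a description. Some recomputations cannot move the estimate, such as leaving out an array of the third arm or fitting only the 2 groups compared. The lowest adjusted p among the recomputations was 0.441, so none came near the threshold. With a mean log2 of at least 5, 6 genes of the set were not tested. The position in the deposited order, added as a covariate after the data were seen, gave -0.19 under restriction.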

Other observations

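Genes outside the set that carry the ISRE letters in a promoter window were listed after the expression values had been seen. Under caloric restriction 23 of 49 such genes had lower means (median 0.02), against 49.5% of all genes tested and 31 of 35 in the set. These lists are unlike, since the set was given by name and not by its letters. The 49 genes were also dimmer, with a mean of 4.63 in controls against 6.19 for the set. A difference between the lists was not tested. Within the set, the 14 measured genes with the IRF core had a median of -0.21 under restriction, and 13 of them had lower means. The 13 with a window but without the IRF core had a median of -0.14, and 12 had lower means. At an unadjusted p under 0.05, 0 genes with the core and 3 without it were lower (all genes 1.87%). A difference between these 2 groups was not tested.

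The named genes outside the set that deviated most like its mean over 14 arrays were Stxbp2, Rnf213, Olfr825, Igsf5, Gsap, Atp5g1, Rufy3, Atxn3, Hnrnpc and Rpn2 (Pearson r from 0.83 to 0.89). Rnf213, an interferon-responsive ubiquitin ligase, is the 1 gene among them that the wider interferon list holds. Of 22145 genes, 36 had r above 0.8 and 23 below -0.8, so values of this size occurred in both directions.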
